A study of Rattus norvegicus with 9 samples.

Results

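Voltage-gated sodium and calcium channels were followed in the amygdala of ovariectomised rats with and without estradiol. The members were chosen by name: every array probe, control spots aside, whose gene symbol began with Scn and a digit (sodium channel subunits) or with Cacna, Cacnb or Cacng (calcium channel subunits). The rule found 68 of 45598 probes, for 40 of 34912 gene names on the array, and 21 of these genes had 1 probe and 19 had several. No measured value entered the choice.

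The study asked what estradiol replacement does to gene expression in the amygdala, a brain region of emotional and autonomic control, in female SHR, an inbred strain with high blood pressure. Each of 9 one-colour Agilent arrays measured RNA from the right and left amygdala of 1 rat. All rats had lost both ovaries at 4 weeks of age and carried a subcutaneous Alzet minipump after 1 week of recovery. The pump gave PEG vehicle alone (OV, n = 4, numbered 1, 2, 3 and 5) or estradiol in PEG at 2 µg per day (OV+E2, n = 5) for a month, and rats were killed at 9 weeks of age. Both groups were therefore ovariectomised SHR, no intact rats were analysed here, and the estradiol group stands for replacement at a constant dose.

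Voltage-gated sodium channels open on depolarisation and carry the upstroke of the action potential; 1 large alpha subunit forms the pore, and small beta subunits set its gating and its place in the membrane. Voltage-gated calcium channels turn depolarisation into calcium entry: L-type channels couple activity to transcription and firing patterns, P/Q-, N- and R-type channels trigger transmitter release, and T-type channels support burst firing near rest. Their alpha2delta and beta subunits bring the pore to the membrane and tune it, while most neuronal gamma subunits serve instead as TARPs, proteins that traffic and gate AMPA-type glutamate receptors.

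The measured unit was the probe, a 60-base DNA strand that captures labelled copies of 1 transcript. The probes below are shown for how 1 rat, OV replicate 3, read them beside the other OV rats. Capitals mark G and C, and all are written 5′ to 3′ as deposited. On the first 6, OV replicate 3 read 1.21 to 3.1 above the mean of the other OV rats, and higher than each of them. On the last 2 it lay close to that mean, at a deviation of 0.15 for Scn2a and -0.18 for Scn3a. It was still the highest OV rat on the Scn2a probe and the lowest on the Scn3a probe. Each of them reads without a stop codon in at least 1 forward frame. Positions are those of rat build rn4, as the array files give them.
Cacna1a, chr19:25194788-25194847, minus strand: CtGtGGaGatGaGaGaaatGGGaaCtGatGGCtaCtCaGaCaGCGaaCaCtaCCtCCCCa
Cacna1c, chr4:154897419-154897478, minus strand: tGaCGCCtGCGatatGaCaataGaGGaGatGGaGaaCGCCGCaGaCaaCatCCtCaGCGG
Cacna1d, chr16:5384279-5384338, minus strand: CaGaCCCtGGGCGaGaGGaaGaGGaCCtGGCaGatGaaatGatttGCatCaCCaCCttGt
Cacng7, chr1:64114264-64114323, minus strand: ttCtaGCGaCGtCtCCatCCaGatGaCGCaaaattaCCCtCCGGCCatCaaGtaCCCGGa
Scn2b, chr8:48078455-48078514, plus strand: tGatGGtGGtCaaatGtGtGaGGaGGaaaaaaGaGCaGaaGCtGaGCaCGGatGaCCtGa
Scn8a, chr7:139686447-139686506, plus strand: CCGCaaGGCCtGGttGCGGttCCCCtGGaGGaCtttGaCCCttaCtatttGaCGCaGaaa
Scn2a, chr3:47720286-47720345, plus strand: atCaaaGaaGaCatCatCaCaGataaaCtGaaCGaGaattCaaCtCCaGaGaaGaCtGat
Scn3a, chr3:47496786-47496845, minus strand: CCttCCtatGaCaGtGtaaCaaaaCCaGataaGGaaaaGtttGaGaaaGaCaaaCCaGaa
The first 6 hold 29 to 33 G or C among their 60 bases, and the Scn2a and Scn3a probes 22 each. These probes were chosen after their values were seen, and others that break this contrast are given below.

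OV replicate 3 stood apart before any comparison was made. The 75th percentile of its signals was 129.69, against 556.81 to 737.56 on the other 8 arrays, and its mean correlation with the other arrays was 0.932, against 0.981 to 0.984. Its scanner values correlated at 0.938 with the column that the authors deposited for the same rat, where each of the others reached 0.9999 or more. The differences of the members are therefore given with all 9 arrays and without OV replicate 3. All 10 neuronal markers examined, Rbfox3 and Map2 among them, were well above background on all 9 arrays; genes that mark the amygdala itself were not examined.

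Signals are log2 values relative to the 75th percentile of the same array, so 0 marks that percentile, and a difference is OV+E2 minus OV with the standard error (SE) of the limma fit. Of the 68 probes, 59 for 35 genes were bright enough to test (well above background on at least 4 arrays), 46 were well above background on all 9 arrays, and none was saturated. After Benjamini-Hochberg adjustment over all 30215 tested probes limma called 0 of the 59 at 0.05, and it called 0.0% of all probes; the smallest adjusted p of a member was 0.251. At an unadjusted p under 0.05 there were 7 of 59 member probes (11.9%), 2 higher and 5 lower with estradiol, against 10.4% of all probes (3.21% higher, 7.17% lower). Without OV replicate 3 there were 6 of 59 (10.2%), 2 higher and 4 lower, against 14.1% of all probes; 0 of 59 passed adjustment, against 0.00331% of all probes, and the smallest adjusted p was 0.181. With slide as a block 2 of 59 had an unadjusted p under 0.05, against 7.63% of all probes. With limma array weights 7 of 59 passed adjustment (2 higher, 5 lower), against 11.6% of all probes, and with those weights but without OV replicate 3 there were 0 of 59, against 0.053%. Leaving out 1 rat at a time gave 2 to 13 member probes under an unadjusted p of 0.05, with 13 without OV replicate 1 (17.6% of all probes), 2 without OV+E2 replicate 5 (6.69% of all probes) and 3 without OV+E2 replicate 1, 3 or 4 (8.23%, 7.34% and 7.19%). Within slide 2, which holds 1 OV rat, 2 of 59 passed, against 3.73%.

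The median difference of the members was -0.03 with 9 arrays and 0.02 without OV replicate 3, beside 0.00 and 0.01 for all probes. The median size of a member's difference, whatever its sign, was 0.26 with 9 arrays and 0.11 without that rat, and its median SE was 0.20 and 0.12.

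**Figure D1:**
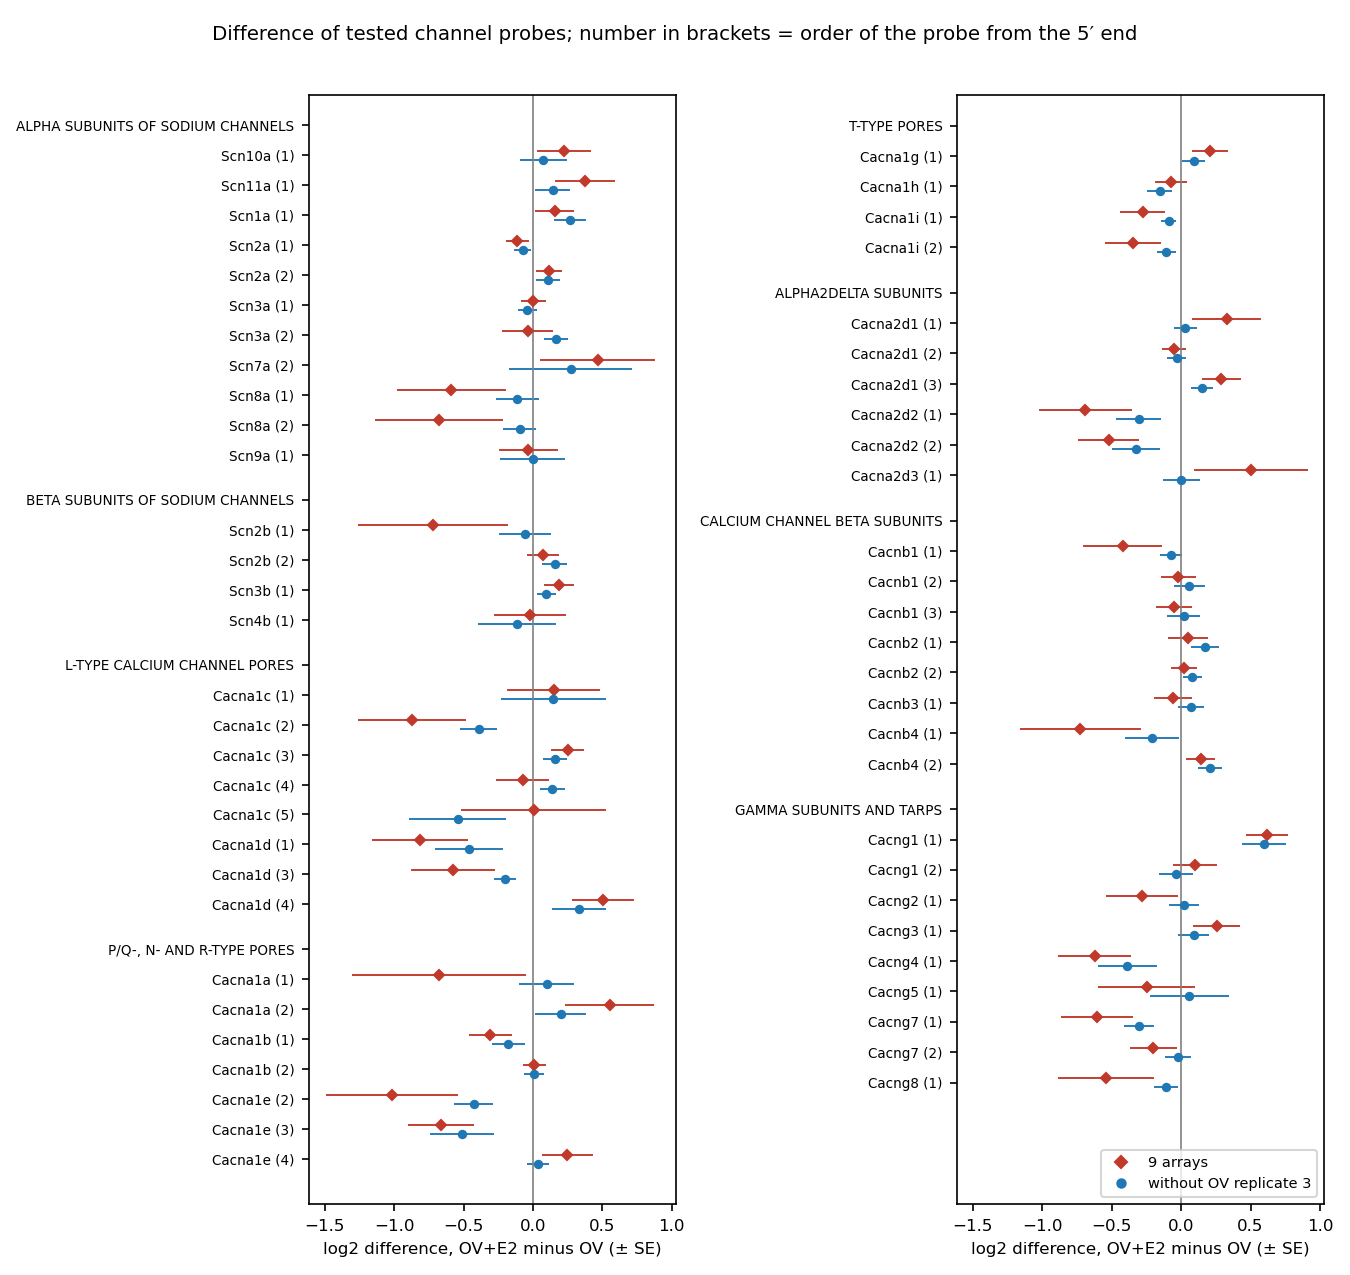
Log2 difference (OV+E2 minus OV, x axis, with SE bars) of tested channel probes, grouped by subunit class. Red diamonds use 9 arrays and blue circles leave out OV replicate 3; most of the widest red bars, among them those of Cacna1a, Scn2b and Cacna1e, shorten and move toward 0 in blue.

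Among the sodium channel alpha subunits 9 of 10 genes were tested and no probe reached an unadjusted p of 0.05 in either analysis, over differences of -0.67 to 0.47. Scn2a, the pore of excitatory neurons' initial segments, gave 3.43, 3.42, 3.54 and 3.33 in the OV rats and 3.31, 3.28, 3.41, 3.34 and 3.25 in the OV+E2 rats on the probe shown above. The groups overlapped, and the spread within each was small. Its difference was -0.11 (SE 0.08, 95% interval -0.30 to 0.08), and that of its second probe 0.11 (SE 0.09); without OV replicate 3 they were -0.08 and 0.11. Scn1a, the sodium channel of fast-spiking inhibitory neurons, differed by 0.16 (SE 0.14), and by 0.26 (SE 0.12, adjusted p 0.360) without OV replicate 3. Scn3a, which is prominent in developing brain, differed by 0.00 (SE 0.09) and -0.04 (SE 0.18) on its 2 probes, and by -0.04 (SE 0.07) and 0.17 (SE 0.09) without that rat.

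Scn8a, the channel of mature axon initial segments and nodes of Ranvier, showed how 1 rat could set a difference. Its probe shown above gave -0.15, 0.57, 2.19 and 0.46 in OV replicates 1, 2, 3 and 5, and 0.21, 0.18, 0.05, 0.28 and 0.17 in the OV+E2 rats. OV replicate 3 lay above every other rat, and the remaining OV rats spanned the OV+E2 values. Its difference was -0.59 (SE 0.39) with 9 arrays and -0.11 (SE 0.16) without that rat; the second Scn8a probe, 107715 bases further along the chromosome (distances here are in rn4), went from -0.67 (SE 0.46) to -0.10 (SE 0.12). In the authors' deposited table OV replicate 3 lay only 0.09 and 0.13 above the mean of the other OV rats on these probes, beside 1.90 and 2.31 in the scanner values.

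Other alpha subunits are known mainly from sensory neurons and glia. Scn9a, a channel of sensory and autonomic neurons, differed by -0.03 (SE 0.21), and by 0.00 (SE 0.23) without OV replicate 3. Scn10a and Scn11a, channels of pain-sensing neurons, differed by 0.22 (SE 0.19) and 0.37 (SE 0.22), and by 0.08 and 0.14 without that rat. Scn7a, a sodium-sensing channel of glia, differed by 0.47 (SE 0.41) on its tested probe, and by 0.27 (SE 0.44) without OV replicate 3. Of these dim probes, Scn10a was well above background on 3 OV and 4 OV+E2 arrays, Scn11a on 3 and 5, and Scn7a on 2 and 4. After normexp background correction Scn10a, Scn11a and Scn7a differed by -0.35, -0.09 and -0.21.

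The 4 beta subunit genes of sodium channels were all tested, and none of their 5 probes reached an unadjusted p of 0.05. Scn2b, which links to the alpha subunit by a disulphide bond, gave -2.77, -2.49, -0.13 and -3.11 in OV and -2.75, -2.48, -3.03, -2.80 and -3.17 in OV+E2 on the probe shown. Here OV replicate 3 was the highest of all rats, and the difference of -0.72 (SE 0.54) became -0.06 (SE 0.19) without it. The other Scn2b probe, 3669 bases further toward the 3′ end, gave 0.07 (SE 0.12) with 9 arrays and 0.16 (SE 0.09) without OV replicate 3. Scn3b and Scn4b, the latter linked to resurgent sodium current, differed by 0.19 (SE 0.11) and -0.02 (SE 0.26) with 9 arrays and by 0.10 (SE 0.07) and -0.12 (SE 0.28) with 8.

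The L-type pores gave 8 tested probes, all for Cacna1c and Cacna1d, the L-type channels of brain. In the 9-array fit 2 of 8 reached an unadjusted p of 0.05, both of Cacna1d and in opposite directions; without OV replicate 3 there were also 2 of 8, both lower. The 5 probes of Cacna1c ran from -0.87 to 0.25 with 9 arrays. The probe shown above was the lowest: it gave -3.78, -3.73, -1.78 and -3.56 in OV and -3.85, -3.87, -4.35, -4.26 and -4.08 in OV+E2. All OV+E2 rats lay below all OV rats, by a narrow margin between OV replicate 1 (-3.78) and OV+E2 replicate 1 (-3.85). The difference was -0.87 (SE 0.39, unadjusted p 0.0524, adjusted p 0.483), and -0.39 (SE 0.13, unadjusted p 0.0183, adjusted p 0.250) without OV replicate 3; it was -0.76 within slide 1 and -0.67 within slide 2. The other 4 probes of the gene differed by 0.15 (SE 0.33), 0.25 (SE 0.12), -0.08 (SE 0.19) and 0.01 (SE 0.52), in order from the 5′ end, so Cacna1c had no common direction. They differed by 0.15, 0.16, 0.14 and -0.54 (SE 0.35) without OV replicate 3.

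Cacna1d, an L-type pore that opens at lower voltage and supports pacemaking, also differed by probe. Its most 5′ probe gave -4.98, -4.05, -2.98 and -4.13 in OV and -4.64, -4.48, -4.91, -5.16 and -5.07 in OV+E2. The OV values spread widely and enclosed 3 of the 5 OV+E2 values. The difference was -0.81 (SE 0.35, adjusted p 0.470), and -0.46 (SE 0.24) without OV replicate 3. The probe shown above lay at -0.58 (SE 0.30) and at -0.20 (SE 0.08, unadjusted p 0.0371, adjusted p 0.316) without that rat. The most 3′ probe, which is also the brightest, went the other way, with -3.02, -2.84, -3.50 and -2.53 in OV and -2.88, -2.74, -2.25, -2.14 and -2.34 in OV+E2. The difference there was 0.51 (SE 0.22, adjusted p 0.481), 0.33 (SE 0.19) without OV replicate 3, and 0.00 after normexp background correction.

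The P/Q-, N- and R-type pores, which open at nerve terminals, had 7 tested probes for 3 genes. One, of Cacna1e, reached an unadjusted p of 0.05 with 9 arrays, and another Cacna1e probe did so without OV replicate 3. Cacna1e, the R-type pore, gave on the first of these -1.98, -1.18, -0.85 and -1.18 in OV and -1.73, -1.79, -2.43, -1.76 and -2.08 in OV+E2. OV replicates 2, 3 and 5 lay above all OV+E2 rats and OV replicate 1 lay among them. The difference was -0.66 (SE 0.24, unadjusted p 0.0211, adjusted p 0.393), and -0.51 (SE 0.23, adjusted p 0.371) without OV replicate 3. The neighbouring probe gave -0.83, -0.61, 1.61 and -0.82 in OV and -1.05, -0.91, -1.49, -1.07 and -1.39 in OV+E2, groups that did not overlap. Its difference of -1.02 (SE 0.48, adjusted p 0.495), the most negative among the 59 tested probes, became -0.43 (SE 0.14, unadjusted p 0.0171, adjusted p 0.245) without OV replicate 3. The brightest probe of the gene, 7402 bases further 3′, gave 3.73, 3.69, 2.85 and 3.65 in OV and 3.73, 3.56, 3.68, 3.84 and 3.81 in OV+E2. There the groups overlapped, and the difference was 0.25 (SE 0.19), or 0.04 (SE 0.08) without OV replicate 3.

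Cacna1a, the P/Q-type pore of most fast synapses, had its 2 probes at -0.68 (SE 0.62) and 0.55 (SE 0.32). On the first, shown above, OV replicate 3 read -1.12 while the other OV rats read -4.31, -4.34 and -4.02 and the OV+E2 rats -4.58 to -3.71. On the second OV replicate 3 read -4.02 and was the lowest rat, with the others between -3.1 and -2.22. The same rat was thus 3.1 above the mean of its group on 1 probe and 1.41 below it on the other, and without it the differences were 0.10 (SE 0.20) and 0.20 (SE 0.18). Cacna1b, the N-type pore, differed by -0.31 (SE 0.15, adjusted p 0.504) and by 0.01 (SE 0.08) on its 2 probes, or by -0.18 (SE 0.12) and 0.01 (SE 0.07) without OV replicate 3. The second is among the tightest measurements here, with a 95% interval of -0.18 to 0.20.

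The T-type pores had 4 tested probes and none at an unadjusted p of 0.05. Cacna1g, the main T-type pore of relay and other bursting neurons, differed by 0.21 (SE 0.13), and Cacna1h, a T-type pore also found in sensory neurons, by -0.07 (SE 0.12); without OV replicate 3 these were 0.09 (SE 0.08) and -0.16 (SE 0.09). Cacna1i had 2 probes of identical sequence, which act as a repeat measurement. They gave -0.28 (SE 0.16) and -0.34 (SE 0.20), and -0.09 (SE 0.05) and -0.11 (SE 0.07) without OV replicate 3. On the first the groups did not overlap, at 0.81, 0.82, 1.56 and 0.80 in OV against 0.69 to 0.75 in OV+E2; on the second OV replicate 5 lay within the OV+E2 range.

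Among the alpha2delta subunits, which include the binding sites of gabapentinoid drugs, 6 probes for 3 genes were tested. Cacna2d2 was lower with estradiol on both probes. Its brighter probe gave 2.80, 3.49, 3.95 and 3.19 in OV and 2.92, 2.90, 2.48, 2.99 and 2.88 in OV+E2. OV replicate 1 lay within the OV+E2 range and the other 3 OV rats above it. The differences were -0.52 (SE 0.22, unadjusted p 0.0413, adjusted p 0.463) and -0.69 (SE 0.33), and both were smaller without OV replicate 3, at -0.32 (SE 0.17) and -0.31 (SE 0.16). Cacna2d1, one of the gabapentin-binding subunits, gave on its most 3′ probe 3.62, 3.54, 2.94 and 3.35 in OV and 3.62, 3.57, 3.76, 3.64 and 3.66 in OV+E2. OV replicate 1 lay within the OV+E2 range and the other OV rats below it. The difference was 0.29 (SE 0.14, adjusted p 0.501), or 0.15 (SE 0.08) without OV replicate 3. Its brightest probe differed by -0.05 (SE 0.08) and the remaining one by 0.33 (SE 0.25), or by -0.03 and 0.03 without that rat. Cacna2d3, a subunit that also organises synapses, went from 0.50 (SE 0.41) to 0.00 (SE 0.13) without OV replicate 3, which had read -2.40 against -0.56 to -0.19 in the other OV rats.

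**Figure D2:**
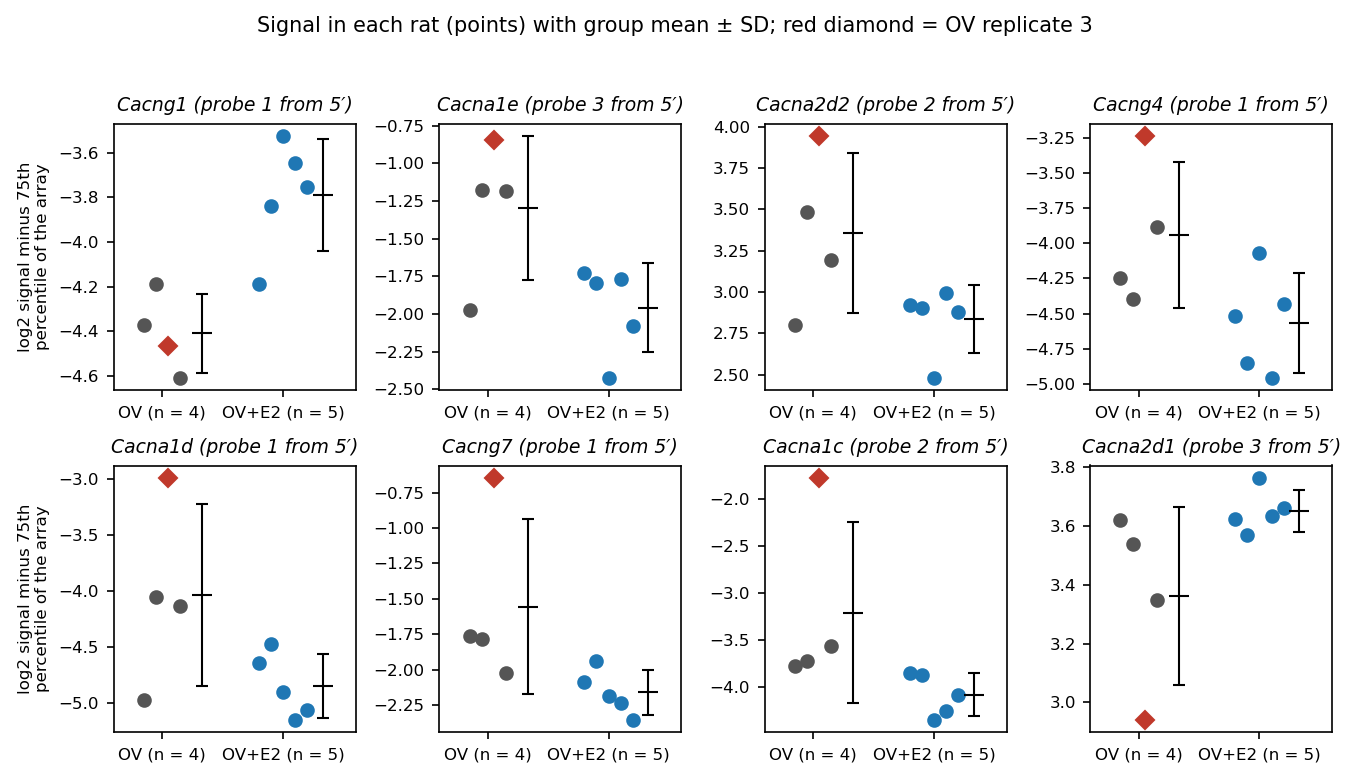
Log2 signal relative to the array's 75th percentile (y axis, a different range in each panel) in each rat, on the probe of smallest unadjusted p, for the 8 member genes of smallest p; bars give the group mean and SD. The red diamond, OV replicate 3, is the highest of 9 rats in 6 panels, the lowest in that of Cacna2d1 and within its group in that of Cacng1.

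All 4 calcium channel beta subunits were tested, on 8 probes, and none reached an unadjusted p of 0.05 with 9 arrays. These cytoplasmic proteins carry the pore to the membrane. Cacnb3 gave 4.46, 4.49, 4.90 and 4.21 in OV and 4.32, 4.42, 4.44, 4.60 and 4.50 in OV+E2, with a difference of -0.06 (SE 0.14), or 0.07 (SE 0.09) without OV replicate 3; the groups overlapped. Cacnb1 had 2 probes placed 1 base apart, which gave -0.02 (SE 0.13) and -0.05 (SE 0.13), while the remaining probe 3708 bases toward the 5′ end gave -0.42 (SE 0.28). The 3 probes gave 0.06, 0.02 and -0.07 without OV replicate 3. Cacnb2 differed by 0.05 (SE 0.14) and 0.02 (SE 0.09), and by 0.17 (SE 0.10) and 0.08 (SE 0.07) without that rat. Cacnb4, the beta subunit affected in the ataxic lethargic mouse, gave -0.73 (SE 0.43) on its 5′ probe and 0.14 (SE 0.11) on its 3′ probe. Without OV replicate 3 the 5′ probe gave -0.21 (SE 0.19) and the 3′ probe 0.21 (SE 0.09, unadjusted p 0.0428, adjusted p 0.333).

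The gamma subunits held 3 of the 7 probes below an unadjusted p of 0.05, of 9 tested. Cacng1, the gamma subunit of the skeletal muscle L-type channel, had the smallest p of all members. It gave -4.37, -4.19, -4.46 and -4.61 in OV and -4.19, -3.84, -3.52, -3.65 and -3.75 in OV+E2. All OV+E2 rats lay above all OV rats, although the highest OV rat and the lowest OV+E2 rat both rounded to -4.19. The difference was 0.62 (SE 0.15, 1.54-fold, unadjusted p 0.00246, adjusted p 0.251), and 0.60 (SE 0.16, adjusted p 0.181) without OV replicate 3; it was 0.33 within slide 1 and 0.97 within slide 2. This was a dim probe, not well above background on OV replicate 3, and after normexp background correction its difference was -0.09. The second Cacng1 probe, 306 bases further 3′, differed by 0.10 (SE 0.16), and by -0.04 (SE 0.12) without OV replicate 3. Among skeletal muscle markers, Ckm was at -1.41 (SE 0.74), Tnnt3 at -0.58 (SE 0.28) and Acta1 at 0.19 (SE 0.29), 3 of the 4 tested were lower with estradiol, and Myh4 was well above background on 1 array. Ckm was at -0.69 (SE 0.57), Tnnt3 at -0.52 (SE 0.31) and Acta1 at -0.08 (SE 0.21) without OV replicate 3. The summed linear signal of that list, in multiples of the array's 75th percentile, was 0.318 to 0.349 in 3 OV rats, 0.659 in OV replicate 3 and 0.251 to 0.285 in OV+E2, and its part in the Cacng1 value was not tested.

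The TARPs proper are Cacng2, Cacng3, Cacng4, Cacng5, Cacng7 and Cacng8, which attach to AMPA receptors. Cacng4 gave -4.25, -4.40, -3.23 and -3.89 in OV and -4.52, -4.85, -4.07, -4.96 and -4.43 in OV+E2. OV+E2 was lower on average, with 1 of its 5 rats inside the OV range of replicates 1, 2 and 5. The difference was -0.62 (SE 0.26, unadjusted p 0.0424, adjusted p 0.466), and -0.39 (SE 0.21) without OV replicate 3. Cacng7, on the probe shown above, gave -1.77, -1.78, -0.64 and -2.03 in OV and -2.09, -1.94, -2.18, -2.23 and -2.36 in OV+E2. OV replicates 1, 2 and 3 lay above all OV+E2 rats and OV replicate 5 among them. The difference was -0.61 (SE 0.26, unadjusted p 0.0436, adjusted p 0.470), and -0.30 (SE 0.11, unadjusted p 0.0236, adjusted p 0.273) without OV replicate 3; the second probe of the gene differed by -0.20 (SE 0.17) and by -0.02 (SE 0.09).

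Cacng8, a TARP enriched in hippocampus and forebrain, read 1.72 in OV replicate 3 and -0.20 to 0.12 in the other rats. Its difference went from -0.54 (SE 0.35) to -0.11 (SE 0.09) without that rat. Cacng2, or stargazin, went likewise from -0.28 (SE 0.26) to 0.02 (SE 0.11), with OV replicate 3 at 4.62 and the rest at 3.18 to 3.62. Cacng3 differed by 0.26 (SE 0.17) and Cacng5 by -0.25 (SE 0.35), or by 0.09 (SE 0.11) and 0.06 (SE 0.29) without OV replicate 3.

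Groups that did not overlap were found for 4 of 59 member probes (6.78%), 1 higher and 3 lower, against 6.91% of all tested probes, 2.89% higher and 4.02% lower. The same 4 did not overlap without OV replicate 3, against 10.4% of all probes (5.02% higher, 5.43% lower): Cacna1c, Cacna1e and Cacna1i on the probes given above, lower with estradiol, and Cacng1, higher. Direction differed between the 9-array and 8-array results for 11 of the 59, against 24.4% of all probes, and the size of the difference was at least halved for 29 of the 59, against 41.8% of all probes.

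Scn4a, Cacna1s, Cacna1f, Cacna2d4 and Cacng6 had no tested probe. Scn4a, the sodium channel of skeletal muscle, was singled out after its values were seen. It was well above background in 3 of 4 OV rats and in none of 5 OV+E2 rats. The OV rats gave -4.73, -4.74, -4.57 and -3.92 and the OV+E2 rats -5.31, -5.20, -7.26, -7.26 and -7.37, with the first 2 OV+E2 rats on the slide of OV replicates 1, 2 and 3 and the last 3 on that of OV replicate 5. The mean OV signal was 2.40-fold higher than a mean reference for OV+E2. That reference took on each array the lowest signal of any probe well above background, or the Scn4a signal where higher. It is not a detection limit: Scn4a read -5.31 on OV+E2 replicate 1, above that array's lowest of -5.38, without being well above background. On OV replicate 3, which enters the OV mean, Scn4a read below that array's lowest of -4.34. In a fit without the filter on dim probes the Scn4a difference was -1.99 (unadjusted p 0.00492, adjusted p 0.312). Cacna1s, the muscle L-type pore, was well above background on 2 OV arrays and 1 OV+E2 array with 1 probe and on 1 OV array with the other. Cacng6, also a muscle gamma subunit, was so on 1 OV+E2 array, and Cacna1f, the retinal L-type pore, and Cacna2d4, its retinal partner, on none.

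The part of 1 rat in these values could be read across the members. OV replicate 3 was the highest or lowest of 9 rats on 49 of the 59 member probes (83.1%), and on 73.6% of all tested probes; the other 8 arrays were extreme on 5 to 13 member probes each. It deviated from the mean of the other OV rats by -2.20 to 3.1, with a median size of 0.71, and by over 1 log2 unit on 20 probes (33.9%, against 26.4% of all probes). In the authors' deposited table the same rat deviated by -1.12 to 0.75 with a median size of 0.11 over 58 member probes, and by over 1 on 1 of them. The steps between the scanner file and that column are not described in the labels or headers.

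**Figure D3:**
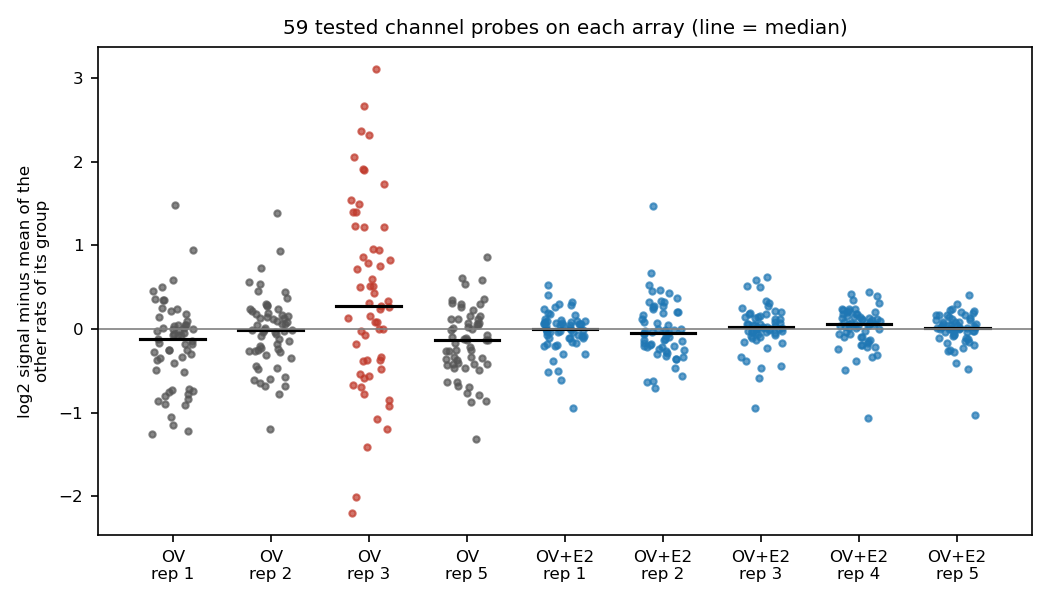
Log2 signal of each of the 59 tested channel probes on each array minus the mean of the other rats of its group (y axis); black lines are medians. OV replicate 3 (red) spans -2.20 to 3.1, while the other 8 arrays stay between -1.32 and 1.49.

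Within a gene the difference varied between probes at different positions. The same counts over all genes of the array were not made, so the values below describe the members only. The most 3′ probe was also the brightest of its gene in some genes, Cacna1e and Scn2b among them. In others, Cacna1c and Scn2a among them, it was not, and the part of signal level was not tested. In 16 genes with several tested probes at different positions, 23 probes could be set against the most 3′ probe of the same gene. They include the Cacnb1 probe that lies only 1 base from the 3′ one. With 9 arrays 15 of the 23 had a lower difference than the 3′ probe, the median gap over the 23 was -0.32, and gaps over 0.5 in size were seen for 9. Without OV replicate 3 the count was again 15 of 23, with a median gap of -0.12 and 7 gaps over 0.5. Of those 7 gaps, 3 lay below 0 and 4 above. The gaps of the 2 upstream Cacna1d probes went from -1.32 and -1.08 with 9 arrays to -0.79 and -0.53 without that rat, those of Cacna1e from -1.27 and -0.91 to -0.46 and -0.55, and that of Cacna1a from -1.23 to -0.10. The other direction was seen for Cacng1, at 0.52 and 0.64, and for the 4 upstream Cacna1c probes, which without OV replicate 3 lay 0.69, 0.15, 0.70 and 0.68 above the most 3′ one. These Cacna1c gaps all rest on that 3′ probe, which read -2.80, -2.88 and -4.43 in OV replicates 1, 2 and 5. In OV+E2 it read -4.08 to -3.69. The most 5′ Cacna1c probe was well above background on only 1 OV and 3 OV+E2 arrays.

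The deviation of OV replicate 3 also varied with the base composition of the probe. The 18 member probes with at least 50% G and C, the class of the Cacna1a, Cacna1c, Cacna1d, Cacng7 and Scn8a probes shown above, had a median deviation of 1.21 on that array, and 16 of 18 lay above 0. Their median difference was -0.53 with 9 arrays (2 of 18 above 0) and -0.11 without OV replicate 3 (5 of 18 above 0). The 15 probes with under 40% G and C, which include those of Scn2a and Scn3a, had a median deviation of 0.13 (8 of 15 above 0). Their median difference was 0.00 with 9 arrays and 0.01 without that rat. The 26 probes between these bounds did not lie between the other classes: their median deviation was -0.19 (12 of 26 above 0), and their median difference 0.08 with 9 arrays and 0.07 without OV replicate 3. Single probes departed from their class. OV replicate 3 deviated by 2.31 on the second Scn8a probe (35.0% G and C) and by 2.06 on the 5′ Cacnb4 probe (38.3%). On the first Cacng1 probe (55.0%) it deviated by -0.07. Across the 59 probes G and C content correlated with the deviation of OV replicate 3 at r = 0.397 (0.112 over all tested probes). With the difference it correlated at r = -0.451 with 9 arrays (-0.207 over all probes) and -0.338 without OV replicate 3 (-0.182). These are descriptions over probes that share the same arrays and in part the same genes. The part of base composition and of position in the differences was not tested.

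**Figure D4:**
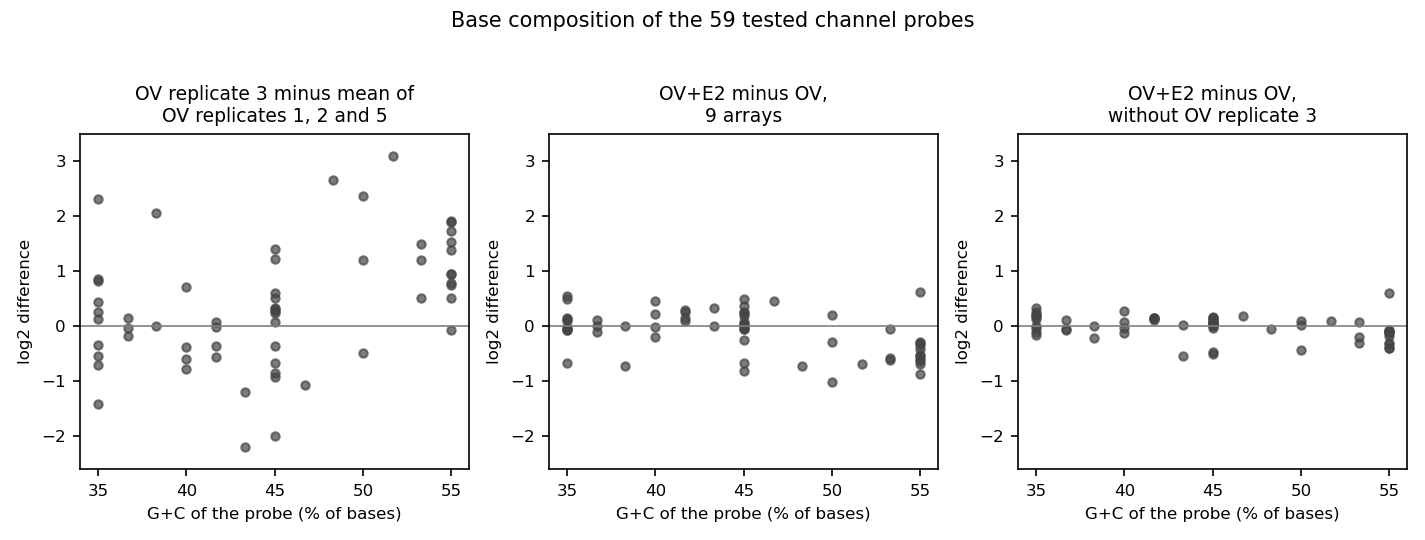
Share of G and C in the probe (x axis, %) against, from left to right, the log2 deviation of OV replicate 3 from the other OV rats, the OV+E2 minus OV difference with 9 arrays, and that difference without OV replicate 3, for the 59 tested channel probes. At 50% or more the left panel lies mostly above 0 (median 1.21) and the middle panel mostly below 0 (median -0.53), while the right panel is closer to 0 (median -0.11).

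Genes that work with these channels were counted in lists written by function, each gene by its brightest probe. None passed adjustment over all probes, and without OV replicate 3 the shares of all probes under an unadjusted p of 0.05 were 5.86% higher and 8.26% lower. Among 14 tested sodium channel partners and axon initial segment genes, Cntn1 and Nfasc, adhesion proteins of the node of Ranvier, stood at 0.24 (SE 0.11) and 0.62 (SE 0.31), and at 0.15 (SE 0.08) and 0.23 (SE 0.06) without OV replicate 3. Of 19 calcium channel regulators, 9 were lower and 10 higher by sign, and 3 lower and 1 higher under an unadjusted p of 0.05: Gem at -0.65 (SE 0.23) and Rem2 at -0.38 (SE 0.14), small GTPases that restrain calcium channels, Stac2, an adaptor of L-type channels, at -0.59 (SE 0.22), and Cabp1, a calmodulin-like protein named after its value was seen, at 0.25 (SE 0.10). Without OV replicate 3 the counts under that p were again 3 and 1, with Gem at -0.74 (SE 0.24, adjusted p 0.241), Rem2 at -0.29 (SE 0.12), Stac2 at -0.35 (SE 0.11) and Cabp1 at 0.17 (SE 0.07).

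Counts in the other lists are also those under an unadjusted p of 0.05. Of 16 presynaptic partners 1 was lower under it, Unc13a, a vesicle priming protein, at -1.22 (SE 0.50), and at -0.58 (SE 0.12, adjusted p 0.150) without OV replicate 3. Of 12 AMPA receptor subunits and auxiliary proteins, the partners of the TARPs, 1 was lower, Gria1 at -0.36 (SE 0.15). Of 11 sodium leak and non-voltage-gated sodium channel genes, Scnn1b, an epithelial channel subunit, was lower at -1.52 (SE 0.47, adjusted p 0.326) and Unc80, a partner of the leak channel, higher at 0.25 (SE 0.08). Of 16 genes of calcium release, entry and extrusion, Slc8a3, a sodium-calcium exchanger, was lower at -0.55 (SE 0.19) and Atp2b3, a calcium pump of the plasma membrane, higher at 0.36 (SE 0.13), or 0.24 (SE 0.08) without OV replicate 3. By sign 9 presynaptic partners were higher and 7 lower, 6 and 6 of the AMPA receptor list, 6 and 5 of the leak channel list, and 10 and 6 of the calcium release list. Without OV replicate 3 the counts under an unadjusted p of 0.05 were 1 higher and 1 lower for the presynaptic partners, 1 and 0 for the AMPA receptor list, 1 and 1 for the leak channel list, and 1 and 2 for the calcium release list.

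Markers of the cells in the tissue also moved between rats. The 10 neuronal markers had a median difference of 0.16 (7 higher, 3 lower), and of 0.08 without OV replicate 3, with summed signals of 168 to 216 times the 75th percentile in OV and 210 to 217 in OV+E2. All 7 oligodendrocyte markers were lower with estradiol, at a median of -0.34, or -0.18 without OV replicate 3, and their sum was 658 to 820 in 3 OV rats, 1600 in OV replicate 3 and 555 to 730 in OV+E2. All 5 choroid plexus markers were higher, at a median of 0.51, or 1.06 without OV replicate 3, and their sum ran from 13.1 to 345 in 3 OV rats, was 752 in OV replicate 3 and ran from 255 to 478 in OV+E2. Blood markers were lower under an unadjusted p of 0.05 for 5 of 7, or 6 of 7 without OV replicate 3, with sums of 150 to 161 in OV and 100 to 140 in OV+E2. Of all tested probes, 7.17% were lower and 3.21% higher under that p with 9 arrays. Without OV replicate 3 these shares were 8.26% and 5.86%. Glutamatergic neuron markers summed to 20.2 to 22.2 in OV and 23.8 to 25.7 in OV+E2, with 1 of 6 higher under that p. By sign 5 of the 9 microglial markers were higher and 4 lower, at a median of 0.04, or -0.09 without OV replicate 3. Under an unadjusted p of 0.05 there were 3 of 9 lower, or 2 of 9 without OV replicate 3. Microglial sums were 46.3 to 54.3 in 3 OV rats, 66.7 in OV replicate 3 and 43.6 to 48.8 in OV+E2. In RNA from whole tissue fewer cells of a type and less RNA per cell cannot be told apart, and the part of these markers in the channel values was not tested.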

How the data were processed

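Values came from the scanner files of 9 Agilent 1-colour arrays, in which the processed signal is an intensity less background, deposited by the authors. Feature Extraction is given as 9.1 per the submitters' processing notes but as 10.7.3.1, with build rn4, per the file headers. Of 62976 spots per array, 4259 control spots and outlier spots were left out and spots of 1 probe averaged. Log2 signal was taken relative to the 75th percentile of each array. Probes that at least 4 arrays marked as well above background were tested with limma 3.58.1 (R 4.3.3; tables made with Python 3.11.15), group as the only term, Benjamini-Hochberg over 30215 probes, threshold 0.05. All 68 member probes carried the symbol of their RefSeq gene.

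Each array is 1 rat, and the number of arrays limits the precision. The authors' deposited table, a linear intensity with 30469 probes and 321 empty cells, served as an alternative; how it was scaled is not stated in the labels. Other alternatives were median scaling, quantile normalization, normexp with an offset of 50, filters on dim probes, slide (also 1 scan each) and replicate number as blocks, array weights, each slide alone, and leaving out each rat; array weights and the slide block without OV replicate 3 were added after seeing the data. The code was tested on simulated data.

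The members, gene lists and the naming rule were chosen with earlier results of these data known. That rule gives rat by rat the 8 member genes of smallest p, every tested probe of them, and up to 3 genes of smallest p per related list; other probes with values in each rat were chosen after their values were seen, as were the sequences shown. Some member genes and list genes are not reported here by name, though counts include them.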

Additional observations from a re-analysis of the deposited data

Results flagged for a closer look

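In 4 of 32 groups of rats examined for the named channel probes, 1 rat stood apart from the rest of its group by Dixon's test. Chance gives about 1 in 20 for a single group. The groups are the same rats read on several probes, so they are not independent and that rate does not apply to the count. OV replicate 3 was the case in 3 of the 4. On the 3′ probe of Cacna1e it read 2.85, with the next OV rat at 3.65. On the Cacna1c probe shown in the report it read -1.78, with the next at -3.56, and on the brightest Cacna1c probe 0.41, with the next at -0.41. The other case was OV+E2 replicate 3 on the brighter Cacna2d2 probe, at 2.48 with the next OV+E2 rat at 2.88. Not every probe given rat by rat in the report was examined in this way. On the first Cacna1i probe, for example, OV replicate 3 read 1.56 with the next OV rat at 0.82. On the Cacna1e probe of most negative difference it read 1.61 with the next at -0.61. The cases above are therefore not a count over all the probes given.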

How the results depend on the processing

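The 9-array analysis called 0 of all probes after adjustment, with 3136 under an unadjusted p of 0.05. The number called was 9 with no filter on dim probes, 69 in the authors' table (1 without OV replicate 3), 1126 within slide 2 (1 OV rat, assumed to vary like the 3 OV+E2 rats), 3506 with array weights, 16 with array weights and without OV replicate 3, 1 with slide as a block and without OV replicate 3, and 0 to 1 when 1 rat was left out. Of the member probes, 7 of 59 passed with array weights (2 higher, 5 lower; 11.6% of all probes) and 2 within slide 2 (Cacng1 0.97 and Cacna1d -0.91; 3.73% of all probes); 0 of 59 passed with array weights without OV replicate 3, beside 0.053% of all probes. The 7 member probes under an unadjusted p of 0.05 became 3 when only probes bright on all 9 arrays were tested (2509 of all 23420 probes then), 2 with slide as a block (7.63% of all probes), 2 with the replicate block (6.51%), 19 with array weights (31.5%), 1 within slide 1 (1.66%), 16 within slide 2 (20.3%), and 2 to 13 when 1 rat was left out (13 without OV replicate 1, 2 without OV+E2 replicate 5, 3 without OV+E2 replicate 1, 3 or 4). The median difference of the members ran from -0.17 within slide 1 to 0.07 with median scaling, beside -0.03 with 9 arrays. Every alternative stayed within 0.229 of the 9-array value, the SD of the member median between rats. That SD includes OV replicate 3, whose member median was 0.46 against -0.31 to -0.11 on the other arrays, so the bound is a weak check. The median difference of all probes, 0.00 with 9 arrays, was 0.11 with median scaling, -0.11 with normexp and -0.13 without the filter. Same-numbered rats deviated together at r = 0.170, -0.0761, -0.0108 and 0.105, and differently numbered rats at -0.290 to 0.122. So few correlations cannot decide whether the numbers pair the rats, and the 9-array fit did not pair them.

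Of 317 values of 14 named probes under 23 alternatives, 288 kept direction and side of the threshold, 7 came to pass it and 22 changed sign. Cacna1c (brightest probe) was 0.0302 with median scaling, 0.12 with array weights, 0.13 in the authors' table, 0.14 there without OV replicate 3, 0.23 within slide 2, -0.1659 to 0.1387 when 1 rat was left out, and 0.13 without OV replicate 3 under array weights or the slide block. Cacna2d1 (brightest) was 0.0538 with median scaling, 0.0018 with quantile normalization, 0.0329 with normexp and 0.0528 within slide 2. Cacng1 was -0.0928 with normexp on the first probe. On the second it was -0.27 with normexp, -0.23 with array weights, -0.0382 (without OV replicate 3) to 0.2386 when 1 rat was left out, -0.038 without OV replicate 3 in the authors' table, and, also without that rat, -0.16 under array weights and -0.027 under the slide block. Cacna1d (3′ probe) was -0.0017 with normexp, and Cacng7 (second probe) 0.0908 within slide 2 and 0.0077 under the slide block without OV replicate 3. The cause of these changes was not tested.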
